A study of Arabidopsis thaliana with 12 samples.

Results

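Expansins and xyloglucan endotransglucosylases/hydrolases (XTHs) are the proteins that let a plant cell wall yield during growth. Loci of both families were taken from the table of deposited transcript levels by name, namely every L*er* locus whose listed homolog in Col carries an EXPA, EXPB, EXLA, EXLB or XTH name followed by a number. The rule used no measured value. It gave 64 of 27147 loci, of which 33 were expansins (23 *EXPA*, 6 *EXPB*, 3 *EXLA* and 1 *EXLB*) and 31 were *XTH*s (11 of group I, 13 of group II, 2 of group IIIA and 5 of group IIIB). Of these, 39 had a single homolog in Col and 25 had several. The neighbouring loci assigned a Col gene to 23 of the 25, and 2 *EXPA* loci remained without a gene name.

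Alpha-expansins (*EXPA*) loosen walls at acid pH without cutting their polymers, and beta-expansins (*EXPB*) are their relatives. The expansin-like proteins (*EXLA*, *EXLB*) share their domains, but no loosening activity has been shown for them. XTHs act on xyloglucan, the main tethering polymer of the primary wall in dicots. They cut it and rejoin the ends, and the members of group IIIA, *XTH31* and *XTH32*, belong to the type that hydrolyses it instead. In *Arabidopsis* both families are large, and members differ in the organ and cell type where they are transcribed.

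RNA was sequenced from *Arabidopsis thaliana* of the L*er* ecotype, as *dme-2* and as wild type (WT), from calli and from de novo shoots, with 3 libraries called biological replicates in each of the 4 groups. The explants were true leaves of seedlings 14 days after germination. Calli had spent 7 days in the dark on callus-inducing medium (CIM), and shoots had then been on shoot-inducing medium (SIM) for 14 days under long days. Both genotypes went through the same culture. *dme-2* carries a mutation in *DEMETER* (*DME*), the gene of a DNA glycosylase that removes methylated cytosine, and the labels write its genotype as *dme-2/-*. No other allele is named. By the paper's methods, CIM was supplemented with dichlorophenoxyacetic acid and kinetin, and SIM with indoleacetic acid and isopentenyl adenine. Shoots and calli thus also differed in the hormones supplied and in light.

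The deposited values were TPM, a relative transcript level adjusted for transcript length with a fixed total per library, and whole-number counts, with 12981250 to 20128757 counts per library. The count columns labelled *dme-2* callus departed from the TPM columns of the same name by a median of 0.877 to 1.08 log2 units over 13800 loci, against at most 0.0831 in any other library, and they were not used. *DME* TPM ranged between 7.49 and 7.89 for *dme-2* shoots and between 18.65 and 19.44 for WT shoots, and between 3.14 and 3.54 for *dme-2* calli and between 10.11 and 13.17 for WT calli. Summed levels of marker lists differed between the tissues in the direction of the labels. The summed TPM of 6 shoot and leaf markers was 15736 to 17374 in *dme-2* shoots and 22076 to 23981 in WT shoots, and 41.2 to 63.8 in *dme-2* calli and 50.3 to 69.7 in WT calli. The 7 callus and root founder markers summed to 16 to 17.35 TPM in *dme-2* shoots and 19.6 to 22.0 TPM in WT shoots, and to 81.9 to 111.3 TPM in *dme-2* calli and 93.7 to 116.4 TPM in WT calli. An exception in the callus list was *SCR*, which was called higher in shoots of both genotypes and averaged 13.7 TPM in *dme-2* shoots and 17.5 TPM in WT shoots, and in the shoot list *CUC2* was not called between WT stages. Calli varied more between replicates than shoots. The median SD of log2 values over 45 members was 0.105 in *dme-2* shoots and 0.0869 in WT shoots, and 0.367 in *dme-2* calli and 0.304 in WT calli.

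*XTH* transcripts were more abundant than expansin transcripts in every group, and only the *XTH* total separated *dme-2* from WT shoots by more than a few percent. The 31 *XTH* loci summed to 3331, 3709 and 3728 TPM in *dme-2* shoots, against 1774, 1658 and 1674 TPM in WT shoots, a ratio of means of 2.11 with no overlap. The 33 expansin loci summed to 1186, 1149 and 1152 TPM in *dme-2* shoots, against 1112, 1091 and 1106 TPM in WT shoots, a ratio of means of 1.05 in libraries that also did not overlap. In calli the *XTH* sums were 3999, 4665 and 3592 TPM in *dme-2*, against 4502, 4237 and 4622 TPM in WT, and the expansin sums were 876, 804 and 964.5 TPM in *dme-2*, against 1061, 962 and 884 TPM in WT. These groups of calli overlapped for both families. In tissue samples of mixed cells, fewer cells of a type and less RNA per cell cannot be told apart.

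The *XTH* sum of WT shoots was thus 0.382 times that of WT calli without overlap, whereas the sums of *dme-2* shoots and *dme-2* calli overlapped, at a ratio of 0.879. Group II of the *XTH*s held most of the genotype difference in shoots, with 1913 ± 130.0 TPM in *dme-2* shoots and 514 ± 17.5 TPM in WT shoots (SD, n = 3 each). Group I stood at 1318 ± 68.9 TPM in *dme-2* shoots and 879 ± 39.3 TPM in WT shoots. Group IIIA ran the other way, at 128.5 ± 6.28 TPM in *dme-2* shoots and 145.6 ± 6.56 TPM in WT shoots. Among expansins, the alpha-expansin sum overlapped between *dme-2* and WT shoots at a ratio of 0.992, the *EXLA* sum was 149.8 ± 6.05 TPM in *dme-2* shoots and 55.7 ± 0.941 TPM in WT shoots, and the *EXPB* sum was 37.4 ± 3.39 TPM in *dme-2* shoots and 62.8 ± 2.08 TPM in WT shoots.

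**Figure D1:**
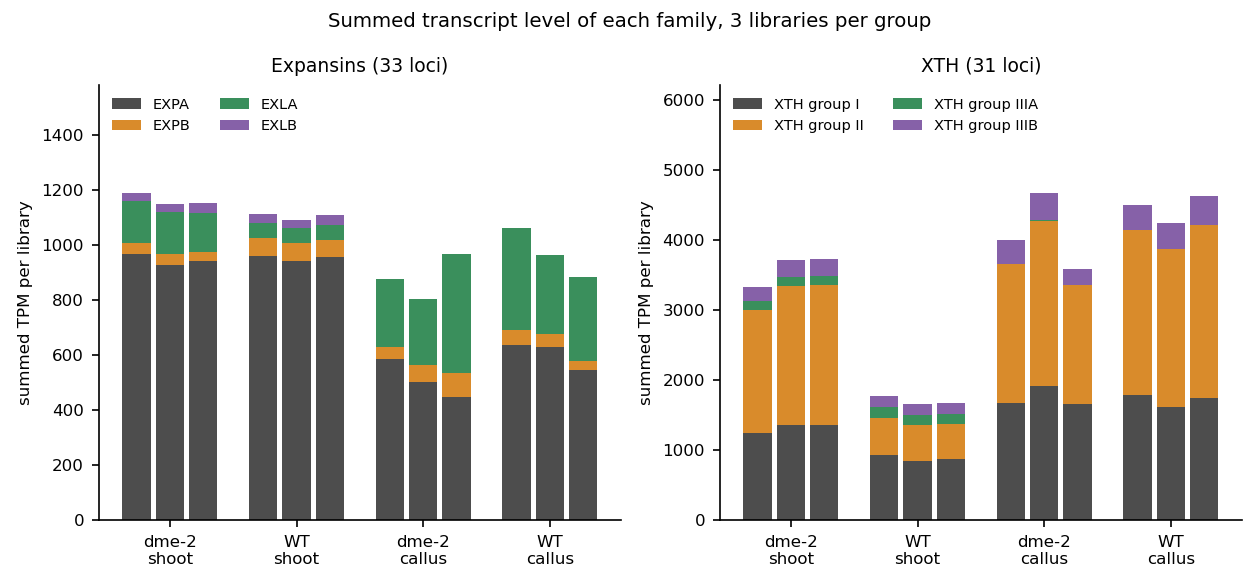
Summed TPM of the expansin loci (left) and the XTH loci (right) in each library, in stacked bars that start at 0 and are coloured by subfamily. The 3 *dme-2* shoot bars of the XTH panel reach 3331 to 3728 TPM, above the 3 WT shoot bars, and the orange group II segment shows most of the step.

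A few members carried each total. *EXPA1*, which is known from guard cells and young leaves, was the highest expansin in shoots of both genotypes, with 259.6, 251 and 249 TPM in *dme-2* shoots and 231, 221 and 215 TPM in WT shoots. It was also the sole expansin with a mean of at least 100 TPM in all 4 groups. *EXPA6* followed at 182, 189 and 176 TPM in *dme-2* shoots, against 187, 188 and 191 TPM in WT shoots, and its genotypes overlapped. In calli the highest expansins were *EXPA10*, which promotes growth of leaves and pedicels, and *EXLA1*. *EXPA10* had 272, 258 and 193 TPM in *dme-2* calli and 311, 353 and 305 TPM in WT calli, and these libraries did not overlap. *EXLA1* had 222, 229 and 367 TPM in *dme-2* calli and 329, 256 and 286 TPM in WT calli, which did overlap. *EXPA10*, *EXLA1* and *EXPA1* together made up 77.2% of the expansin TPM of *dme-2* calli and 79.9% of that of WT calli, whereas the 3 highest members of shoots held 47.7% in *dme-2* and 49.9% in WT. *EXPA1* and *EXPA10* share their listed homologs with *EXPA15*, and how many reads fit several of these genes was not measured.

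*XTH11* was the most abundant *XTH* of calli and nearly silent in shoots. It had 1471, 1738 and 1427 TPM in *dme-2* calli and 1474, 1359 and 1530.1 TPM in WT calli, and stood at 9.42, 8.86 and 7.47 TPM in *dme-2* shoots, against 2.59, 2.79 and 2.58 TPM in WT shoots. *XTH24*, first described as the meristem gene *MERI5*, came next in calli, with 1242, 1574 and 752 TPM in *dme-2* calli, against 1223, 1214 and 1414 TPM in WT calli. The *dme-2* calli spread widely for this gene and enclosed the WT values. *XTH18* followed, at 487, 528 and 678 TPM in *dme-2* calli and 739, 699 and 737 TPM in WT calli, where every *dme-2* value lay below every WT value. These 3 loci made up 80.8% of the *XTH* TPM of *dme-2* calli and 77.8% of that of WT calli. In *dme-2* shoots the leading *XTH*s were *XTH24*, *XTH4* and *XTH19*, which held 62.1% of the total and did not overlap with one another or with the next member. In WT shoots they were *XTH4*, *XTH9* and *XTH24*, which held 49.3%. *XTH4* and *XTH9* are known from stems, where they are active during secondary growth. Of the 64 members, 4 kept a mean of at least 100 TPM in every group, namely *EXPA1*, *XTH4*, *XTH19* and *XTH24*.

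**Figure D2:**
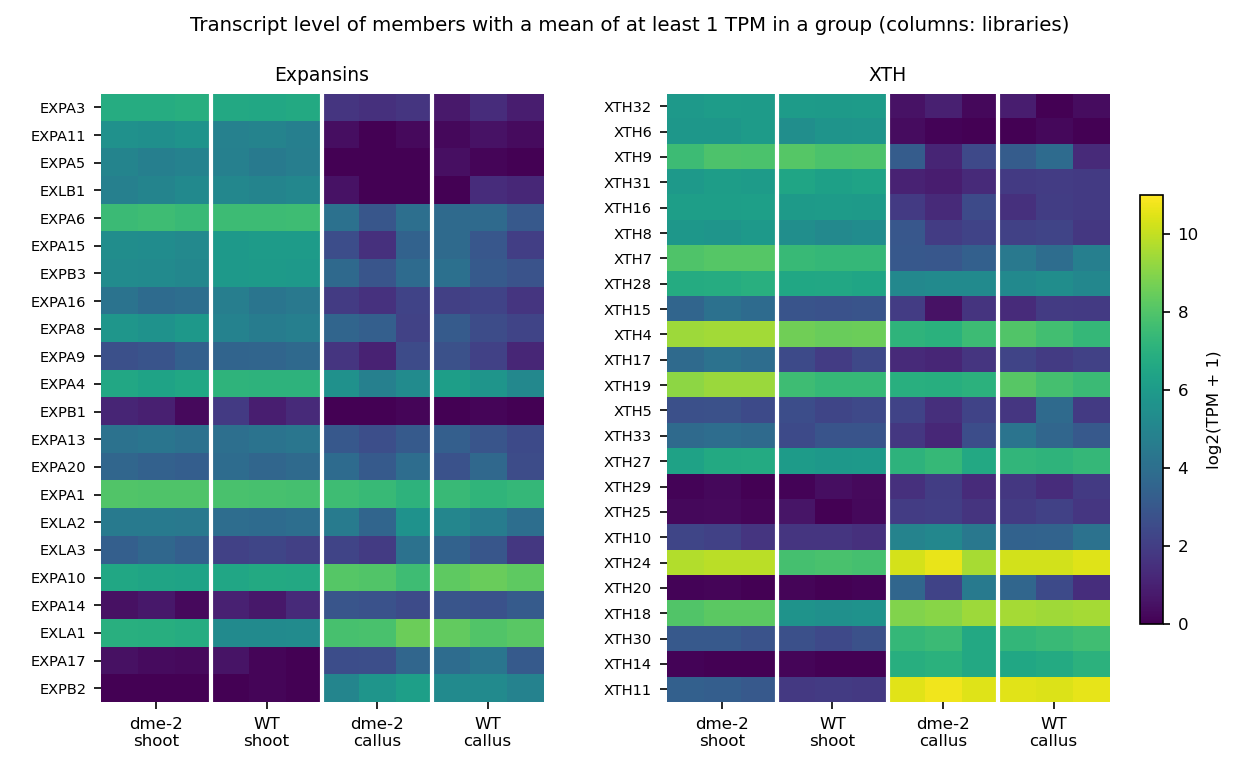
Level of each member with a mean of at least 1 TPM in some group, as log2(TPM + 1) by colour, with 1 column per library and members ordered from high in shoots (top) to high in calli (bottom). Most members change colour between shoots and calli, and within a stage the genotypes differ most in the rows of *XTH18*, *XTH19* and *XTH24*.

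At the other end, 18 members stayed below a mean of 1 TPM in every group, 11 of them expansins and 7 *XTH*s, and 7 were listed at 0 in all 12 libraries. Those at 0 were *XTH1*, *XTH2* and *XTH21*, and the expansins *EXPB6*, *EXPA21*, *EXPA24* and 1 unnamed *EXPA* locus. *EXPA21*, *EXPA24* and the 2 unnamed loci are consecutive in the L*er* annotation (ATLER-5G55790 to ATLER-5G55820), and the highest value in any library over the 4 was 0.11 TPM. Genes known from root hairs were at or near 0 throughout. *EXPA7* reached at most 0.4 TPM and *EXPA18* at most 1.54 TPM, both in WT calli, and *XTH12*, *XTH13* and *XTH26* reached at most 0.32 TPM. *XTH14*, another root-expressed member, was the exception, as described below. It shares its listed homologs with *XTH12* and *XTH13*, and how many reads fit several of these genes was not measured. After the filters on low values, 47 members entered at least 1 comparison (23 expansins and 24 *XTH*s) and 46 of these were called in at least 1 at an adjusted p under 0.05, as were 91.9% of all loci that entered a comparison.

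The first comparison asked how the families change as a callus forms a shoot. In WT, where counts were tested with edgeR's quasi-likelihood test and p-values were Benjamini-Hochberg adjusted over 19616 loci, 11 of 22 expansins tested were higher in shoots and 7 lower, and 10 of 24 *XTH*s were higher and 12 lower. Over all loci tested, 43.4% were higher and 38.4% lower. The share of expansins called, 81.8%, was thus that of loci at large, and the share of *XTH*s was 91.7%, in both families with calls in either direction. The median log2 fold change was 0.98 for expansins, −0.69 for *XTH*s and 0.14 for all loci. With scaling by library size only, the median of all loci moved to 0.68, 67.9% of the calls were higher in place of 53.0%, and the members' calls became 15 higher and 6 lower for expansins and 11 and 11 for *XTH*s. In *dme-2*, where log2(TPM + 1) was tested with limma over 18729 loci, 13 of 21 expansins were higher in shoots and 5 lower, and 14 of 24 *XTH*s were higher and 8 lower. There 49.0% of all loci were higher and 23.8% lower, and the medians were 1.24, 1.80 and 0.48. These medians come from another method than those of WT and are not directly comparable with them. With limma on log2(TPM + 1) in WT, the median of all loci was 0.58. The members' calls were then 14 higher and 5 lower for expansins and 10 and 11 for *XTH*s. With TPM rescaled by the median ratio, 50.4% of the calls over all loci were higher in place of 67.3%, and the members' calls were 11 higher and 6 lower for expansins and 13 and 9 for *XTH*s. Because of the added 1, differences on the log2(TPM + 1) scale are too small for rarely transcribed genes.

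Alpha-expansins held the largest rises. *EXPA3* had 111, 112 and 118 TPM in *dme-2* shoots and 2.2, 1.92 and 2.28 TPM in *dme-2* calli, against 98.8, 94.8 and 101 TPM in WT shoots and 0.66, 1.61 and 0.85 TPM in WT calli. Shoots lay far above calli in both genotypes, by 5.52 ± 0.15 (SE) on the log2 scale in WT (edgeR, adjusted p = 7.8e-09) and by 5.19 ± 0.10 on the log2(TPM + 1) scale in *dme-2* (limma, adjusted p = 1.1e-07). *EXPA11* had 46.5, 43.6 and 49.4 TPM in *dme-2* shoots and 0.33, 0 and 0.23 TPM in *dme-2* calli. In WT it had 27.7, 28.9 and 25.8 TPM in shoots and 0.18, 0.43 and 0.26 TPM in calli, with a log2 fold change of 5.94 ± 0.29 (edgeR, adjusted p = 1.4e-07). Every shoot was high and every callus close to 0. *EXPA5* had 30, 26.1 and 28.4 TPM in *dme-2* shoots, and no fold is given because each *dme-2* callus is listed at 0. In WT it had 26.7, 21.2 and 24.9 TPM in shoots and 0.35, 0.1 and 0 TPM in calli, a rise of 6.18 ± 0.39 on the log2 scale (edgeR, adjusted p = 7.3e-07). The abundant *EXPA6* rose as well, with calli at 16.3, 6.8 and 15.3 TPM in *dme-2*, against 12.8, 12.9 and 7.38 TPM in WT, and so did the expansin-like *EXLB1*, whose shoots had 31.1 ± 4.85 TPM in *dme-2*, against 32.4 ± 1.56 TPM in WT (SD, n = 3 each) and whose calli were at 1.62 TPM or less.

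Expansins that fell included *EXPA14* and *EXPA17*, which act in lateral root emergence downstream of LBD18, a transcription factor of callus formation. *EXPA17* had 0.41, 0.26 and 0.23 TPM in *dme-2* shoots and 5.01, 5.22 and 11.2 TPM in *dme-2* calli, against 0.5, 0.12 and 0 TPM in WT shoots and 13.7, 18.3 and 7.72 TPM in WT calli. The stages did not overlap in either genotype, and the fall in WT was -5.93 ± 0.46 on the log2 scale (edgeR, adjusted p = 2.7e-06). *EXPA14* gave 0.41, 0.65 and 0.23 TPM in *dme-2* shoots and 6.53, 5.77 and 4.65 TPM in *dme-2* calli, against 1, 0.62 and 1.5 TPM in WT shoots and 6.39, 5.86 and 7.85 TPM in WT calli, with a WT log2 fold change of -3.57 ± 0.27 (edgeR, adjusted p = 2.4e-06). *EXPB2* was the most strongly callus-restricted beta-expansin. It was listed at 0 in all *dme-2* shoots and had 31.4, 51.7 and 72.0 TPM in *dme-2* calli, and in WT it had 0, 0.11 and 0 TPM in shoots and 37.4, 37.2 and 28.0 TPM in calli. Its counts in the 3 WT shoots were 3, 1 and 0. Another beta-expansin, *EXPB3*, went the other way, with 39.2, 36.9 and 33.5 TPM in *dme-2* shoots and 12.5, 6.54 and 13.4 TPM in *dme-2* calli, against 60.3, 63.6 and 59.1 TPM in WT shoots and 15.6, 7.56 and 6.12 TPM in WT calli. The rare *EXPB1* totalled 63 counts in WT shoots and 3 counts in WT calli, a ratio of 21.9 (95% counting interval 7.18 to 109), an interval that covers counting error only. *EXPA1* is an example of dependence on scaling, since its WT log2 fold change was -0.15 ± 0.10 and not called with TMM normalization but 0.40 and called when libraries were scaled by size only.

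Among the *XTH*s, members of group I and IIIA held the largest rises. *XTH6* had 56.0, 55.4 and 65.0 TPM in *dme-2* shoots and 0.27, 0.09 and 0 TPM in *dme-2* calli, against 42.2, 50.4 and 52.9 TPM in WT shoots and 0, 0.17 and 0 TPM in WT calli. In WT this corresponded to 1893 counts in the 3 shoots and 2 counts in the 3 calli, a ratio of 989 (95% counting interval 273 to 8174). The hydrolase-type *XTH32* had 61.5, 66.4 and 64.2 TPM in *dme-2* shoots and 0.44, 0.97 and 0.18 TPM in *dme-2* calli, against 65.0, 63.2 and 64.0 TPM in WT shoots and 0.82, 0 and 0.3 TPM in WT calli. It was thus silent or nearly so in every callus, and rose in WT by 7.63 ± 0.38 on the log2 scale (edgeR, adjusted p = 1.6e-07). *XTH31*, the other hydrolase-type member, had 60.9, 68.6 and 64.0 TPM in *dme-2* shoots and 1.08, 0.82 and 1.48 TPM in *dme-2* calli. In WT it had 86.5, 75.3 and 82.8 TPM in shoots and 2.67, 2.83 and 2.67 TPM in calli, a log2 fold change of 4.58 ± 0.16 (edgeR, adjusted p = 2.2e-08). *XTH9* reached 184, 242 and 237 TPM in *dme-2* shoots and 8.2, 1.2 and 4.4 TPM in *dme-2* calli. Its calli differed from one another several-fold but remained far below the shoots, and its difference in *dme-2* was 5.53 ± 0.48 on the log2(TPM + 1) scale (limma, adjusted p = 5.4e-05).

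Other *XTH*s fell in shoots of both genotypes. *XTH14* had 0.09, 0 and 0 TPM in *dme-2* shoots and 119, 131 and 97.8 TPM in *dme-2* calli, against 0.11, 0 and 0 TPM in WT shoots and 91.9, 104 and 134 TPM in WT calli. WT shoots held 1 count and WT calli 4320 counts, so that WT calli stood 4133 times higher (95% counting interval 741 to 163300) after allowance for library size. *XTH11*, whose values are given above, fell in both genotypes, with a difference of -7.33 ± 0.13 on the log2(TPM + 1) scale in *dme-2* (limma, adjusted p = 7.7e-08) and a log2 fold change of -9.58 ± 0.18 in WT (edgeR, adjusted p = 3.6e-09). *XTH30* had 7.31, 7.4 and 6.01 TPM in *dme-2* shoots and 161, 182 and 97.5 TPM in *dme-2* calli, against 5.38, 4.37 and 5.71 TPM in WT shoots and 156, 174 and 199 TPM in WT calli, with a WT log2 fold change of -6.04 ± 0.18 (edgeR, adjusted p = 1e-08). Shoots and calli did not overlap in either genotype for these 3 genes. The summed TPM of 8 root hair markers was higher in calli as well, at 15.7 to 17.6 in *dme-2* shoots and 79.2 to 87.0 in *dme-2* calli, against 4.52 to 5.93 in WT shoots and 94.0 to 128 in WT calli. Only 4 of the 8, *RHD6*, *RSL2*, *RSL4* and *LRX2*, had a mean of at least 1 TPM in calli of either genotype. Of these, *LRX2* was not called between *dme-2* stages, with means of 16.05 TPM in shoots and 12.9 TPM in calli. The sums thus do not establish that root hair cells were present, and any part of such cells in the *XTH14* values was not tested.

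When WT and *dme-2* were both tested from TPM with limma, the calls of both genotypes could be set side by side. Over all loci tested in both, 45.2% were higher in shoots of both genotypes and 21.8% lower in both. Of 21 expansins tested in both genotypes, 13 were higher in shoots of both, 5 lower in both, 1 (*EXPA20*) higher in WT but not called in *dme-2*, and 2 (*EXLA2* and *EXLA3*) called in neither. Of 24 *XTH*s, 10 were higher in both, 8 lower in both, 3 (*XTH5*, *XTH17* and *XTH19*) called only in *dme-2*, as higher, 2 (*XTH24* and *XTH27*) called only in WT, as lower, and 1 (*XTH33*) higher in *dme-2* and lower in WT. Different calls in the genotypes do not by themselves show a difference, which the interaction below addresses.

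In de novo shoots, the second comparison, most *XTH*s were higher in *dme-2* than in WT, while expansins were called in both directions. With edgeR's quasi-likelihood test over 19114 loci, 15 of 20 *XTH*s tested were higher in *dme-2* shoots, 2 were lower and 3 were not called. Of all loci tested, 26.7% were higher and 26.1% lower. The median log2 fold change of the *XTH*s tested was 0.63, against −0.00 for all loci. By group, 6 of 6 members of group II, 5 of 8 of group I and 4 of 4 of group IIIB were higher. A member of group I (*XTH9*) and a member of group IIIA (*XTH31*) were lower. Expansins split evenly, with 8 of 21 higher, 6 lower and a median of −0.01. All 3 *EXLA*s were higher, alpha-expansins were 5 higher and 5 lower of 15 tested, and of the 2 beta-expansins tested *EXPB3* was lower and *EXPB1* was not called.

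**Figure D3:**
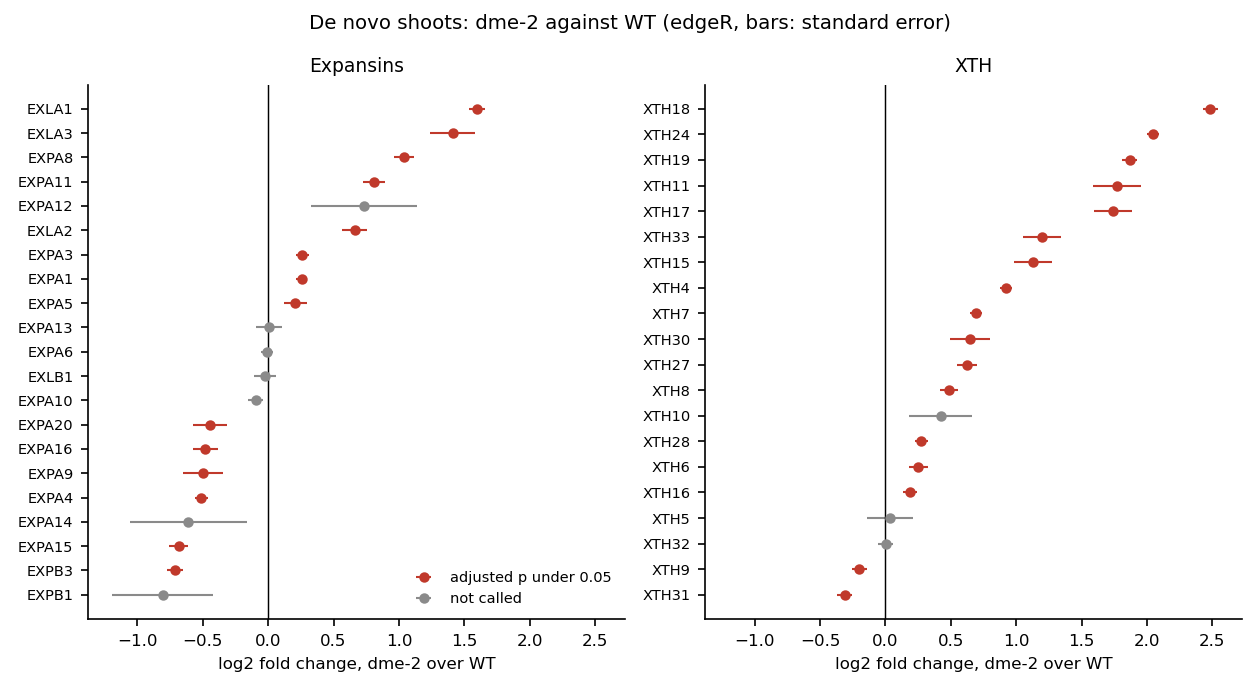
Log2 fold change of each member tested in de novo shoots, *dme-2* over WT, with its standard error (edgeR, 3 libraries each), for expansins (left) and XTHs (right). Expansins scatter to both sides of 0, while 15 XTHs lie to the right of 0 in red and *XTH9* and *XTH31* to the left.

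The largest effects came from 3 consecutive loci of group II, ATLER-4G58450 (*XTH24*), ATLER-4G58460 (*XTH18*) and ATLER-4G58470 (*XTH19*). *XTH24* had 849.6, 931 and 942 TPM in *dme-2* shoots and 217, 226 and 213 TPM in WT shoots. Each group was tight and the groups lay far apart, at a log2 fold change of 2.05 ± 0.04 (edgeR, adjusted p = 2.7e-21). *XTH18* had 256, 297 and 296 TPM in *dme-2* shoots and 48.7, 45.3 and 47.2 TPM in WT shoots, the largest rise among the 41 members tested at 2.48 ± 0.06 (edgeR, adjusted p = 1.2e-20). *XTH19*, which like its paralog *XTH20* is known from wound healing in stems, had 562, 653 and 652 TPM in *dme-2* shoots and 193, 164 and 165 TPM in WT shoots. Its log2 fold change was 1.87 ± 0.06 (edgeR, adjusted p = 2.5e-18). *XTH17*, on another chromosome, is the closest relative of the *XTH18* and *XTH19* pair together with *XTH20*. It was far less abundant at 13.1, 16.7 and 14.3 TPM in *dme-2* shoots, against 4.51, 2.83 and 4.2 TPM in WT shoots, again without overlap, and rose by 1.74 ± 0.14 (edgeR, adjusted p = 3.2e-10). *XTH20* was at or below 0.11 TPM in every shoot of either genotype. *XTH17*, *XTH18*, *XTH19* and *XTH20* share their listed Col homologs, and reads that fit several paralogs are divided by estimation in RSEM, the program used for quantification. How many reads this concerned was not measured, and the step to whole-number counts is not given in the sources used here, so that the values of these 4 loci are uncertain relative to one another.

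In group I, the abundant *XTH4* had 672, 713 and 716 TPM in *dme-2* shoots and 389, 354 and 367 TPM in WT shoots, a rise of 0.92 ± 0.04 (edgeR, adjusted p = 8.2e-15). *XTH7* had 253, 272 and 272 TPM in *dme-2* shoots and 169.6, 160.1 and 159 TPM in WT shoots, a rise of 0.69 ± 0.04 (edgeR, adjusted p = 2.4e-12). In both genes all *dme-2* shoots lay above all WT shoots. The callus gene *XTH11*, low in every shoot, was still 3.41-fold higher in *dme-2* shoots (log2 fold change 1.77 ± 0.18, edgeR, adjusted p = 1.3e-08). Of the difference of 1887 TPM between the *XTH* means of *dme-2* and WT shoots, *XTH24* accounted for 36.5%, *XTH19* for 23.7%, *XTH4* for 17.5% and *XTH18* for 12.5%, together 90.2%.

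All 4 members of group IIIB that were tested rose. *XTH33*, predicted to be anchored in the plasma membrane, had 13.1, 14.1 and 12.9 TPM in *dme-2* shoots and 4.48, 6.35 and 6.2 TPM in WT shoots, a rise of 1.20 ± 0.14 (edgeR, adjusted p = 1.5e-07). *XTH27*, which acts in tracheary elements of leaf veins, had 79.2, 102 and 106 TPM in *dme-2* shoots and 63.7, 57.8 and 59.1 TPM in WT shoots, a rise of 0.62 ± 0.08 (edgeR, adjusted p = 2.3e-07). The remaining *XTH* rises ranged from 0.19 (*XTH16*) to 1.13 (*XTH15*) on the log2 scale. *XTH15* and *XTH16* share their listed homologs, as do *XTH27* and *XTH28*, and are uncertain in the same way as the *XTH17* relatives. *XTH31* was lower, with 60.9, 68.6 and 64.0 TPM in *dme-2* shoots and 86.5, 75.3 and 82.8 TPM in WT shoots, by -0.31 ± 0.06 (edgeR, adjusted p = 6e-05). *XTH9* was called lower at -0.20 ± 0.06 (edgeR, adjusted p = 0.0055), but its libraries overlapped. Summed levels of other marker lists differed between the genotypes too. Xylem and secondary wall markers, 6 loci, summed to 245 to 268 TPM in *dme-2* shoots and 164 to 169 TPM in WT shoots. Root hair markers summed to 15.7 to 17.6 TPM in *dme-2* shoots and 4.52 to 5.93 TPM in WT shoots, but this was the level of 1 gene. Only *LRX2* of the 8 reached a mean of 1 TPM, at 16.05 TPM in *dme-2* shoots and 4.71 TPM in WT shoots. The others were near 0 in both, with 4 of the 8 at 0 in all *dme-2* shoots and 1 of the 8 at 0 in all WT shoots. The sum of the shoot and leaf markers given above was lower in *dme-2* shoots. Of these 6 markers 4 were called lower, *CUC2* was not called, and *STM* was called higher. *STM* averaged 19.1 TPM in *dme-2* shoots and 9.11 TPM in WT shoots (log2 fold change 1.05 ± 0.10, edgeR, adjusted p = 4.2e-09). The part of these cell types in the *XTH* differences was not tested.

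Among expansins, the *EXLA* genes had the largest rises. *EXLA1* had 123, 119.6 and 113 TPM in *dme-2* shoots and 37.9, 37.7 and 39.0 TPM in WT shoots, so that the groups were tight and well apart, at 1.60 ± 0.06 on the log2 scale (edgeR, adjusted p = 7.2e-17). *EXLA3*, its neighbour in the annotation, had 8.94, 11.8 and 9.12 TPM in *dme-2* shoots and 3.37, 3.94 and 3.18 TPM in WT shoots, a rise of 1.41 ± 0.17 (edgeR, adjusted p = 2.5e-07). *EXLA1* and *EXLA3* share their listed homologs and are uncertain in the same way as the *XTH17* relatives. *EXLA2*, with a homolog of its own, had 21.6, 22.1 and 21.1 TPM in *dme-2* shoots and 14.2, 13.2 and 14.6 TPM in WT shoots, a rise of 0.66 ± 0.10 (edgeR, adjusted p = 3.1e-06).

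Alpha-expansins moved in both directions. *EXPA8* had 54.0, 47.3 and 56.6 TPM in *dme-2* shoots and 28.7, 23.8 and 25.5 TPM in WT shoots, and all *dme-2* values exceeded all WT values (log2 fold change 1.04 ± 0.08, edgeR, adjusted p = 4.3e-11). *EXPA11* had 46.5, 43.6 and 49.4 TPM in *dme-2* shoots and 27.7, 28.9 and 25.8 TPM in WT shoots, a rise of 0.81 ± 0.08 (edgeR, adjusted p = 1.1e-08). *EXPA1* and *EXPA3* rose by 0.25 and 0.26 on the log2 scale without overlap, and *EXPA5* by 0.21 with overlap, a call kept in 5 of 14 alternative analyses. *EXPA4* fell, with 96.4, 83.0 and 93.5 TPM in *dme-2* shoots and 140.5, 139 and 139 TPM in WT shoots (log2 fold change -0.51 ± 0.05, edgeR, adjusted p = 1.4e-08). *EXPA15* had 41.4, 40 and 35.4 TPM in *dme-2* shoots and 61, 64.4 and 65.3 TPM in WT shoots, at -0.68 ± 0.07 (edgeR, adjusted p = 1.7e-08). *EXPA9*, *EXPA16* and *EXPA20* fell by 0.50, 0.48 and 0.44. The beta-expansin *EXPB3*, whose values are given above, was lower in all 3 *dme-2* shoots than in any WT shoot, at -0.71 ± 0.06 (edgeR, adjusted p = 1.2e-09). *EXPA6* and *EXPA13* had log2 fold changes of −0.01 and 0.01 and were not called. *EXPA3*, *EXPA4*, *EXPA6*, *EXPA9* and *EXPA16* share their listed homologs, and the opposite directions of *EXPA3* and *EXPA4* carry the same uncertainty as the *XTH17* relatives. *EXPA1*, *EXPA10* and *EXPA15* share another set of homologs, and the rise of *EXPA1* and the fall of *EXPA15* are uncertain in that way too.

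In calli, no member was called between genotypes, out of 18 expansins and 22 *XTH*s tested with limma on log2(TPM + 1). Of all loci tested, 0.0529% were higher and 0.0881% lower in *dme-2* calli. At an unadjusted p under 0.05 there were 2 expansins (*EXPA3* and *EXPA10*) and 7 *XTH*s, that is 9 of 40 members, against 8.06% of all loci. A fit over all 12 libraries called 1 expansin and 5 *XTH*s of 45 members, against 2.22% of all loci, and of these *XTH*s 1 was higher and 4 were lower. That fit takes 1 spread per locus from shoots and calli together. Because calli varied more than shoots, it can understate the error between calli. The 3 *dme-2* calli did not overlap with the 3 WT calli in 9 of the 40 members tested, against 13.3% of all loci. These were the same 9 members as those with an unadjusted p under 0.05. Both counts rest on the same libraries and are not separate evidence. *XTH7* had 7.19, 6.9 and 9.22 TPM in *dme-2* calli and 20.9, 14.4 and 25.6 TPM in WT calli, a difference of -1.26 ± 0.23 on the log2(TPM + 1) scale (limma, adjusted p = 0.15). *XTH33* had 2.42, 1.34 and 5.02 TPM in *dme-2* calli and 18.0, 11.2 and 7.48 TPM in WT calli, a difference of -1.78 ± 0.42 (limma, adjusted p = 0.25). *XTH19* had 123, 119 and 133 TPM in *dme-2* calli and 279, 214 and 179 TPM in WT calli, a difference of -0.81 ± 0.18 (limma, adjusted p = 0.2). These 3 genes had lower values in *dme-2* calli, whereas they were higher in *dme-2* shoots. *XTH10* pointed the other way, with 29.1, 32.9 and 20.1 TPM in *dme-2* calli and 10.1, 10.2 and 17.0 TPM in WT calli (difference 1.09 ± 0.26, limma, adjusted p = 0.26). *XTH17*, *XTH18* and *XTH31* made up the rest of the 7 *XTH*s, all with lower values in *dme-2* calli.

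**Figure D4:**
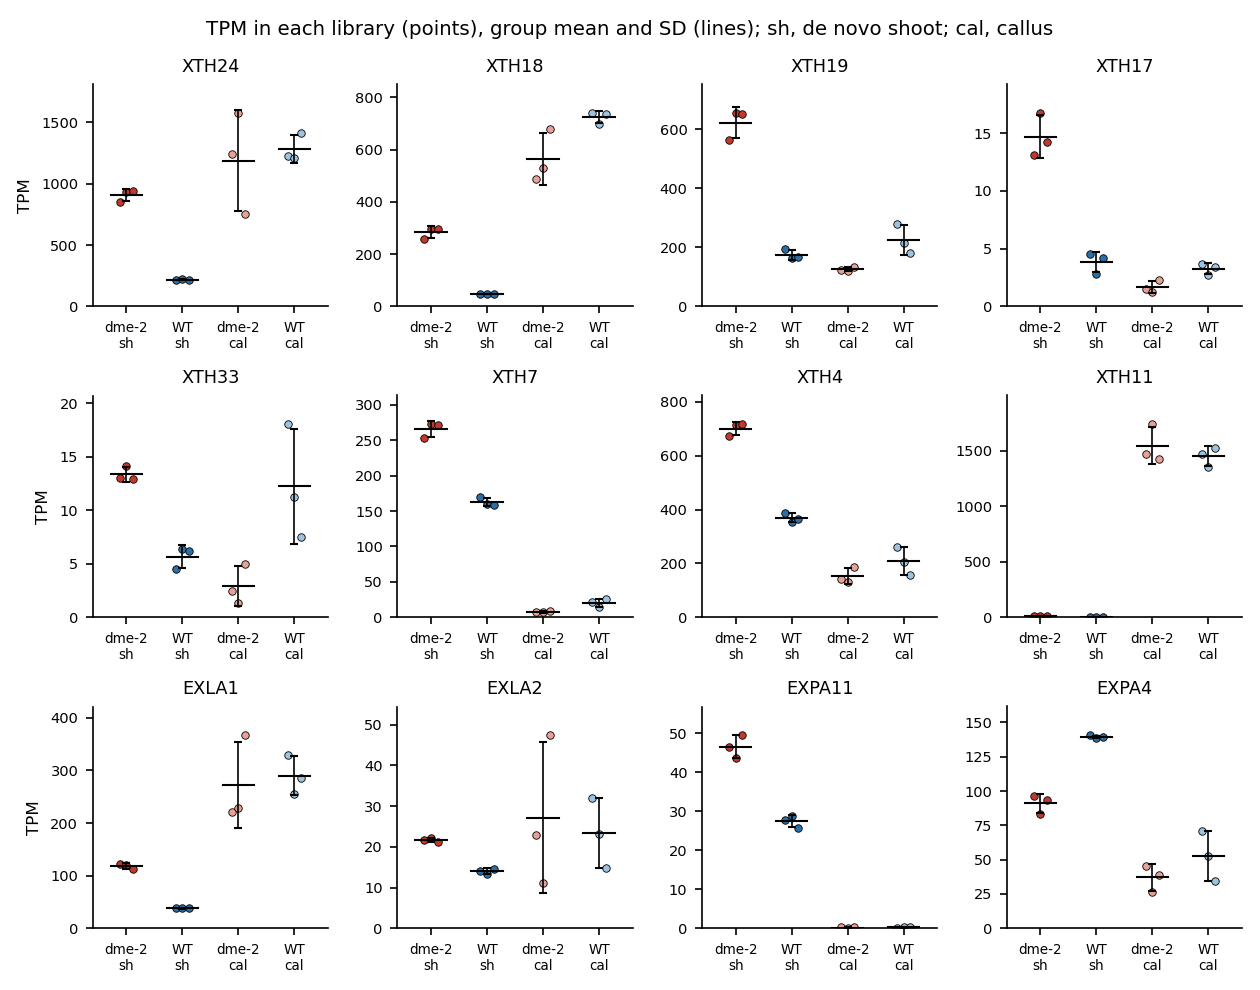
TPM of 12 members in every library (points) with the mean and SD of each group of 3 (lines), on linear axes that start at 0. For *XTH24*, *XTH18*, *XTH19* and *EXLA1* every *dme-2* shoot lies above every WT shoot.

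The interaction of genotype and stage tested whether the change between callus and shoot differed in *dme-2* from that in WT. In limma's fit of log2(TPM + 1) over all 12 libraries, 9 of 24 *XTH*s and 2 of 21 expansins were called. All 11 had a higher signed shoot-minus-callus difference in *dme-2*, which in some was a smaller fall than in WT. Of all 18813 loci tested, 6.75% were called in that direction and 4.2% in the other. The median interaction was 0.58 for *XTH*s, −0.04 for expansins and −0.06 for all loci. The comparison shares its libraries with those above, and its calls are not separate evidence.

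For *XTH18* the shoot-minus-callus difference was -0.98 ± 0.15 in *dme-2* and -3.92 ± 0.07 in WT, an interaction of 2.94 ± 0.17 (limma, adjusted p = 6.7e-06). *XTH24* showed -0.33 ± 0.27 in *dme-2*, not called, and -2.54 ± 0.09 in WT, an interaction of 2.22 ± 0.30 (limma, adjusted p = 0.001). Both genes were thus lower in WT shoots than in WT calli by a larger step than in *dme-2*. *XTH19* changed by 2.30 ± 0.11 in *dme-2* and -0.34 ± 0.17 in WT, an interaction of 2.64 ± 0.21 (limma, adjusted p = 4.1e-05), and *XTH17* by 2.57 ± 0.18 in *dme-2* and 0.17 ± 0.19 in WT, an interaction of 2.40 ± 0.26 (limma, adjusted p = 0.0003). The WT change of these 2 genes was not called from TPM, although *XTH19* was called lower in WT shoots from counts (-0.79 ± 0.14, edgeR, adjusted p = 0.00056), a call lost with scaling by library size only. With both genotypes tested from TPM, *XTH33* was the only member called in opposite directions, at 1.98 ± 0.33 in *dme-2* and -0.92 ± 0.30 in WT. Its interaction was 2.90 ± 0.48 (limma, adjusted p = 0.0033). *XTH7*, *XTH4* and *XTH11* were also called, with interactions of 1.96, 1.35 and 1.303, and *XTH27* at 0.86 lay closest to the threshold (adjusted p = 0.043). It was called in only 4 of 16 alternative analyses.

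Of the expansins, *EXLA1* changed by -1.16 ± 0.20 in *dme-2* and -2.89 ± 0.10 in WT, an interaction of 1.73 ± 0.24 (limma, adjusted p = 0.0012). *EXPA11* changed by 5.33 ± 0.15 in *dme-2* and 4.47 ± 0.13 in WT, an interaction of 0.86 ± 0.19 (limma, adjusted p = 0.015) that was not called with a pseudocount of 0.1, at a larger value of 1.39 (adjusted p = 0.23).

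**Figure D5:**
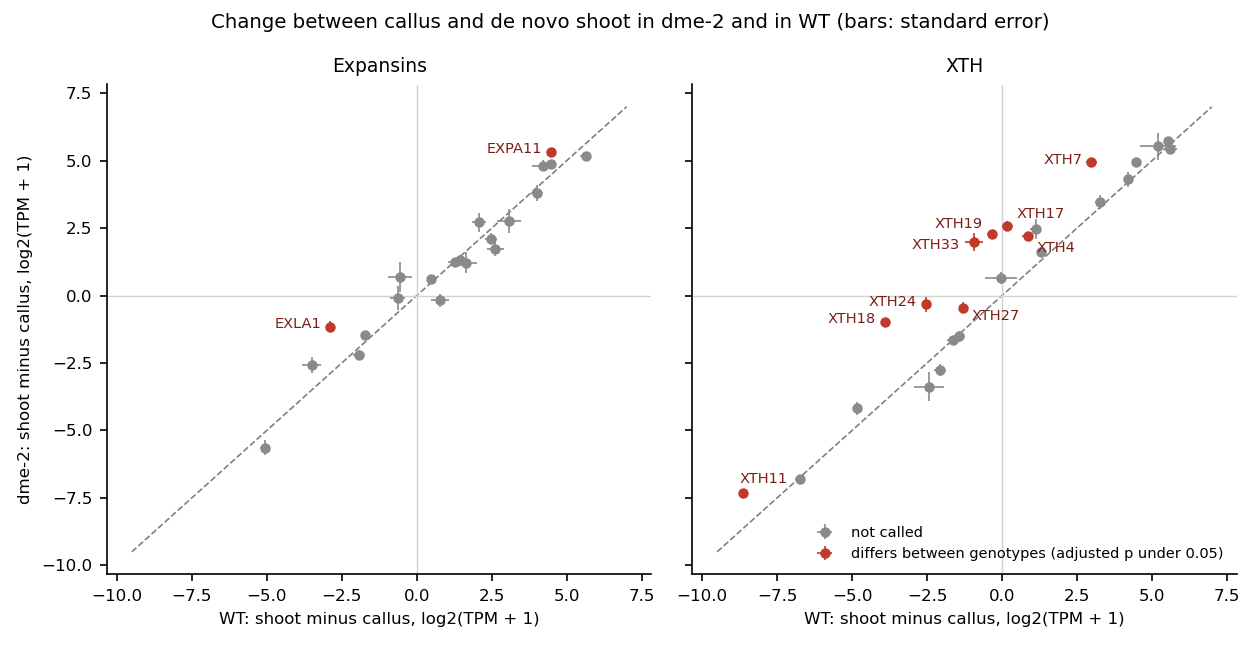
Shoot-minus-callus difference on the log2(TPM + 1) scale of each member tested, in WT (x axis) and in *dme-2* (y axis), with standard errors and the line of equal change (dashed). The 11 members in red, 9 of them XTHs, have a different change in *dme-2* (adjusted p under 0.05, limma) and all lie above the line.

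Genes that make xyloglucan and cellulose, and the proton pumps that acidify the wall, were counted for comparison. Of 12 xyloglucan synthesis genes tested, 6 were higher in *dme-2* than in WT shoots and 0 lower, with a median log2 fold change of 0.13, against 26.7% higher and 26.1% lower over all loci. They included *XXT1*, a xylosyltransferase, at 0.81 ± 0.05 (edgeR, adjusted p = 7.4e-13), and *CSLC4*, the glucan synthase of xyloglucan, at 0.56 ± 0.05 (edgeR, adjusted p = 3.5e-10). *CSLC4* had 151.2, 177.6 and 168.4 TPM in *dme-2* shoots and 118.8, 113.7 and 109 TPM in WT shoots, with no overlap. Of 3 xyloglucan trimming enzymes, 2 were higher and 1 lower, of 7 cellulose synthesis genes 5 were higher and 0 lower, and of 10 plasma membrane proton pumps 3 were higher and 0 lower. Between stages, xyloglucan synthesis had 9 of 12 higher and 0 lower in *dme-2* shoots than in *dme-2* calli, and 6 of 12 higher and 2 lower in WT shoots than in WT calli. Over all loci these shares were 49.0% higher and 23.8% lower in *dme-2*, and 43.4% and 38.4% in WT. The proton pumps had 2 higher and 3 lower of 6 in *dme-2*, and 2 higher and 4 lower of 10 in WT.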

How the data were processed

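RNA-seq was analysed from *dme-2* and WT de novo shoots and calli of L*er* (3 libraries each). The authors used STAR 2.7.10a to map reads against an L*er* assembly and RSEM 1.3.1 for quantification. They deposited TPM values and whole-number counts per locus, the counts without normalization and by a step not given in the sources used here. Counts of the columns labelled *dme-2* callus contradicted their TPM and were left out. WT stages and shoot genotypes were therefore tested on counts (edgeR 4.0.16, quasi-likelihood test, TMM, filterByExpr, R 4.3.3), and comparisons with *dme-2* calli on log2(TPM + 1) (limma 3.58.1, trend, mean TPM of 1 or more), each over all loci with Benjamini-Hochberg adjustment and a threshold of 0.05. Both tests, and DESeq2 1.42.0 as an alternative, were tested on simulated data. p-values set a difference against the spread between libraries of a group, which both tests estimate with information from all loci.

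Loci with several homologs were given a Col gene by their 15 neighbours on each side, through RefSeq TAIR10.1. RefSeq synonyms would add 3 loci (*EXLB2*, *EXLB3* and 1 locus for *XTH22* and *XTH23*), which the naming rule leaves out. Values in every library are given for the 3 largest rises and falls per comparison and family without overlap and with a mean of at least 5 TPM, and for the 3 highest members per group. Members were taken by the naming rule, and the marker and pathway lists were chosen with earlier results of these data known. Results were also computed with DESeq2, RLE scaling, scaling by library size only, at least 10 counts in every library or no filter, 9 or 12 libraries in 1 fit, a replicate block, limma on TPM, a pseudocount of 0.1, no TPM filter, rescaled TPM, and leaving out each library.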

Additional observations from a re-analysis of the deposited data

Results flagged for a closer look

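The change between callus and shoot differed between *dme-2* and WT, by the interaction term of limma on log2(TPM + 1), in 11 members. In each, the signed shoot-minus-callus difference was higher in *dme-2*. For *XTH18*, *XTH24*, *XTH11*, *XTH27* and *EXLA1* the difference was negative in both genotypes and nearer 0 in *dme-2*, that is a smaller fall. For *XTH18*, for example, it was -0.98 in *dme-2* and -3.92 in WT. Group II of the *XTH*s gave 4 of these, namely *XTH18* (2.94, adjusted p = 6.7e-06), *XTH19* (2.64, adjusted p = 4.1e-05), *XTH17* (2.40, adjusted p = 0.0003) and *XTH24* (2.22, adjusted p = 0.001). Group I gave *XTH7* (1.96, adjusted p = 0.00059), *XTH4* (1.35, adjusted p = 0.0059) and *XTH11* (1.303, adjusted p = 0.00035). Group IIIB gave *XTH33* (2.90, adjusted p = 0.0033) and *XTH27* (0.86, adjusted p = 0.043). The expansins were *EXLA1* (1.73, adjusted p = 0.0012) and *EXPA11* (0.86, adjusted p = 0.015). These were 9 of 24 *XTH*s and 2 of 21 expansins, against 6.75% of all loci called in that direction. None of the 45 members tested was called in the opposite direction, against 4.2% of all loci.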

How the results depend on the processing

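The numbers of members called stayed within 1.5 times the reported value in 126 alternative analyses and moved further in 6. Fitting the 9 libraries other than *dme-2* calli together called 9 expansins between *dme-2* and WT shoots in place of 14. Over all loci, that fit called 5437 of 19954 in place of 10093 of 19114. Fitting all 12 libraries called 1 expansin and 5 *XTH*s between *dme-2* and WT calli in place of 0 and 0, with a spread shared with the less variable shoots. Calls over all loci were then 417 of 18813 in place of 24 of 17029. With a pseudocount of 0.1, 1 expansin was called in the interaction in place of 2, and 1657 of all 18813 loci in place of 2060. When 1 library was left out at a time, there were 2 to 4 expansins and 8 to 10 *XTH*s in the interaction, with 4 expansins without WT callus replicate 1 and without WT callus replicate 2. There were 13 to 14 expansins and 16 to 17 *XTH*s between shoots, 18 to 20 and 20 to 22 between WT stages, 17 to 19 and 21 to 24 between *dme-2* stages, and 0 to 0 for both between calli. Over all loci, leaving out 1 library gave 1271 to 3469 calls in the interaction, against 2060. It gave 8831 to 9967 between shoots, against 10093, and 1 to 9 between calli, against 24. Between stages it gave 15068 to 16380 in WT, against 16055, and 11941 to 14335 in *dme-2*, against 13633. Among single members, 3 values of 2 genes reversed, and neither gene was called as reported. In WT stages, *EXPA1* moved to 0.40 with library size only and to 0.47 with limma on TPM, and *XTH5* ranged over −0.9982 to 0.58 with 1 library omitted, reaching 0.58 without WT callus replicate 2. Among the values of single members under alternatives, 64 lost a call and 44 gained one. Another 2742 either kept a call and its direction or remained not called, and direction was not compared for those not called. The causes were not tested.

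Deviations of same-numbered libraries correlated at −0.39 to 0.03, so no positive pairing by replicate number was seen. Differently numbered libraries were not compared, and a shared batch was not tested. With the number as a replicate block, 20 expansins and 21 *XTH*s were called between WT stages, 18 and 21 between *dme-2* stages, 13 and 17 between shoots, 0 and 0 between calli, and 2 and 8 in the interaction. Calls over all loci with the block were 15579 of 19616 between WT stages and 13144 of 18729 between *dme-2* stages. They were 9317 of 19114 between shoots, 1 of 17029 between calli, and 1450 of 18813 in the interaction. Depth limits the ratios between WT stages of *XTH6* and *XTH14*, which rest on 2 counts in WT calli and 1 count in WT shoots.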
